A study of Caenorhabditis elegans with 43 samples.

Results

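The regions described here are the bins of 1 kb in the 2 piRNA clusters of chromosome IV of C. elegans that hold 4 or more annotated piRNAs, called dense bins below. A bin counted as a cluster bin when its midpoint lay between 4.5 and 7 Mb (the small cluster) or between 13.5 and 17.2 Mb (the big cluster) in genome build WBcel235. There were 1823 dense bins, of 6200 cluster bins, 17493 bins on chromosome IV and 70403 bins listed for any library genome-wide. The big cluster held 1575 of them and the small cluster 248. Together they held 10311 of the 14714 annotated piRNAs of the chromosome (70.1%).

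SNPC-1.3 occupancy was measured by anti-Flag ChIP-seq in whole worms at 48 h (L4 larvae), with 2 immunoprecipitated (IP) libraries per strain and an input library for each. Worms with a degron on SNPC-4 (snpc-4::aid) and the auxin receptor TIR1 (Psun-1::TIR1) in the tagged background were given 250 µM auxin for 4 h and are called SNPC-4 depleted. They were set against worms with the tag alone (snpc-1.3::3xflag, allele xk32, called flag), and both against untagged N2 worms. For ChIP, the study's methods name auxin only for the SNPC-4-depleted strain. Loss of SNPC-4, auxin and strain background therefore cannot be told apart. Small RNAs were sequenced from snpc-1.3(-) worms at 48 h (xk27, n = 2), wild-type (WT, N2) worms at 48 h (n = 3), snpc-1.3(2xtbs) worms at 72 h (n = 3) and WT worms at 72 h, as gravid adults (n = 3). The labels only number the replicates. The study calls those of the ChIP-seq, and some of the small RNA libraries, biological, and whether they came from separate cultures is not given in the sources used here. The p-values measure the spread between these libraries.

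The label of the SNPC-4-depleted libraries lists snpc-4(xk23), and also ieSi38 and unc-11(ed3), but no Flag allele, which their titles and the study's methods give. A loss of signal after depletion and a missing tag cannot be told apart from these files. Their TIR1 is driven by the germline promoter of sun-1, so depletion is limited to the germline while whole worms were assayed. The label of the 2xtbs worms gives allele xk36, which also holds a 3xflag tag, while the strain list of the study gives an untagged allele (xk29) under the name snpc-1.3(2xtbs), so which was sequenced is not settled here. WT worms carry no tag. Small RNA counts do not measure the snpc-1.3 transcript, so the mutant label was not checked here. The 48 h and 72 h small RNA libraries ran on separate flow cells, so time and flow cell cannot be told apart. IP libraries held 14980457 to 24896703 counts over bins, input libraries 38330920 to 48104586, and small RNA libraries 4336397 to 22346249 counts over all features.

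piRNAs are small RNAs of the animal germline that guide Piwi proteins to transcripts to be silenced. In C. elegans most are transcribed one by one by RNA polymerase II, each from its own short gene, and nearly all lie in the clusters of chromosome IV. A core motif, NNGTTTCA, stands upstream of many of them, and a C at its first base is known as a mark of piRNAs made during spermatogenesis. SNPC-4 is the worm ortholog of the DNA-binding subunit of the complex that drives small nuclear RNA genes and is needed for piRNA transcription. SNPC-1.3 is an ortholog of another subunit of that complex and acts in the male germline. In hermaphrodites the germline turns to oocytes after a first period of spermatogenesis, and the 48 h and 72 h worms stand on either side of that switch. On this basis piRNAs higher in WT worms at 48 h than at 72 h are called male here, those lower are called female, and the rest not enriched.

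Sequences of 8 piRNA loci of dense bins show what these bins are built of. Each line gives 60 bases upstream and then the 21-base piRNA, 5′ to 3′ on the strand of the piRNA as DNA, with the core motif and the piRNA in capitals. The first 3 are male piRNAs with a C-first motif, the next 3 female piRNAs, and the last 2 are a pair whose annotations lie 1 base apart.
21ur-770: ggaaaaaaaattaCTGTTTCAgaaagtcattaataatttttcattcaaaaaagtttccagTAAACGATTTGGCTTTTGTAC
21ur-2592: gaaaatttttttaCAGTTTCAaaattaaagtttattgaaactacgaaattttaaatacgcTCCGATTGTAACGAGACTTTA
21ur-3766: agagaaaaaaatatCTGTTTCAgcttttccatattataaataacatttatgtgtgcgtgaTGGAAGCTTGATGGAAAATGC
21ur-2502: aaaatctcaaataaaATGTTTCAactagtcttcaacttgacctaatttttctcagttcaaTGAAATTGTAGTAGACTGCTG
21ur-4817: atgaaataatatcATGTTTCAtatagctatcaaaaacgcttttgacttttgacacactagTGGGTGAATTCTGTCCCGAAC
21ur-1848: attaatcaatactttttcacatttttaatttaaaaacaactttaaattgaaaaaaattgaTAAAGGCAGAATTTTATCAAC
21ur-3840: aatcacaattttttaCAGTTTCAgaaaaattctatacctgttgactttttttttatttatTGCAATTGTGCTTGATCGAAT
21ur-10260: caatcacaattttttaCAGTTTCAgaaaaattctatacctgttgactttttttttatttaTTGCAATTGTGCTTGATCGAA

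These windows lie at chrIV:16391830-16391910 (minus strand) for 21ur-770, chrIV:16047399-16047479 (plus) for 21ur-2592 and chrIV:16057712-16057792 (minus) for 21ur-3766. The female ones lie at chrIV:15396785-15396865 (plus) for 21ur-2502, chrIV:15386083-15386163 (minus) for 21ur-4817 and chrIV:15152392-15152472 (minus) for 21ur-1848. The pair lies at chrIV:15975516-15975596 for 21ur-3840 and chrIV:15975517-15975597 for 21ur-10260, both on the minus strand. All 8 piRNAs start outside protein-coding genes. The window of 21ur-1848 holds no NNGTTTCA. In the other 7 the G of the motif lies 42 to 45 bases before the piRNA.

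Over all 10311 piRNAs of dense bins, 64.4% had GTTTCA within 60 bases upstream on their strand, with a median distance of 44 bases from the G to the piRNA. The share was 66.2% for the other cluster piRNAs and 56.1% for those outside the clusters. A C stood first in 72.6% of the motifs in dense bins. It stood first in 90.7% of those of male piRNAs, in 45.8% of those of female piRNAs and in 76.7% of those not enriched. A T opened 96.1% of the piRNAs. By their first base, 6785 lay outside protein-coding genes, 3321 in introns and 205 in exons of the Ensembl annotation.

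As DNA, the dense bins were poor in G and C. Their median GC content was 28.9%, against 31.8% in cluster bins with 1 to 3 piRNAs, 36.2% in cluster bins with none and 35.1% outside the clusters. CNGTTTCA, the C-first form of the core motif, was searched on both strands. It occurred in 94.1% of dense bins, in 80.5% of cluster bins with 1 to 3 piRNAs, in 22.8% of those with none and in 19.8% of bins outside the clusters. No exon of a protein-coding gene overlapped 66.1% of the dense bins, and 56.3% lay wholly outside such genes, against 22.7% outside the clusters. Both strands carried piRNAs in 1324 of the dense bins and 1 strand in 499.

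A count of annotated piRNAs overstates the number of separate genes. Of the 10311 piRNAs, 5225 (50.7%) overlapped another on the same strand, and the 10311 fell into 7421 loci. Dense bins held a median of 4 loci (range 1 to 9), and 587 (32.2%) held fewer than 4. The bin with most piRNAs, chrIV:16660001-16661000, had 17, all on the minus strand. Of these, 5 female ones (21ur-129, 21ur-11047, 21ur-10148, 21ur-11006 and 21ur-9991) overlap each other downstream of 1 ATGTTTCA. Dense bins also lay side by side: 1456 (79.9%) touched another, and the longest run was of 17 bins.

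Dense bins carried SNPC-1.3::3xFlag signal in flag worms, and those listed in SNPC-4-depleted and N2 worms stood near input there. The deposited files list a bin only where its IP CPM, the library's counts scaled to its total, exceeds a constant of 10.45 to 10.54 CPM. SNPC-4-depleted files listed 714 and 241 dense bins, flag files 1815 and 1817, and N2 files 372 and 199. In the libraries that listed them, the median log2 ratio of IP CPM to input CPM was 0.000 and 0.039 in SNPC-4-depleted worms, 0.918 and 1.093 in flag worms, and -0.017 and 0.034 in N2 worms. Across the 1814 dense bins listed in both flag files, Spearman's rho between the replicates was 0.899. Listing outside flag worms favoured bins rich in G and C: with dense bins in 4 groups by GC content, N2 files listed 211 and 146 of the 441 in the highest group and 20 and 3 of the 475 in the lowest.

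The signal followed the number of piRNAs across the clusters. In flag worms the median log2 ratio was 0.301 and 0.292 in cluster bins with no piRNA, 0.423 and 0.484 with 1, 0.580 and 0.679 with 2, and 0.741 and 0.881 with 3, just outside the limit. It was 0.838 and 1.009 with 4 piRNAs, just inside it, 0.893 and 1.050 with 5, 0.965 and 1.117 with 6, and 0.999 and 1.191 with 7 or more. Across all listed cluster bins Spearman's rho between piRNA number and log2 ratio was 0.611 (5145 bins) and 0.646 (5101 bins), and within the dense bins 0.226 (1815) and 0.236 (1817). Neighbouring bins share fragments and all bins share 1 library, so these values are descriptions. Only listed bins enter, which were 62.4 and 60.5% of cluster bins with no piRNA and 86.6 and 85.6% of those with 1. Of the dense bins 99.6 and 99.7% were listed. The medians at low piRNA numbers thus leave out more of the bins with low IP CPM. The 22 bins outside the clusters with 4 or more piRNAs had medians of 0.721 and 0.887 (20 listed in each flag file), against 0.081 and 0.096 for the 4471 and 4240 listed of the 11293 chromosome IV bins outside the clusters.

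**Figure D1:**
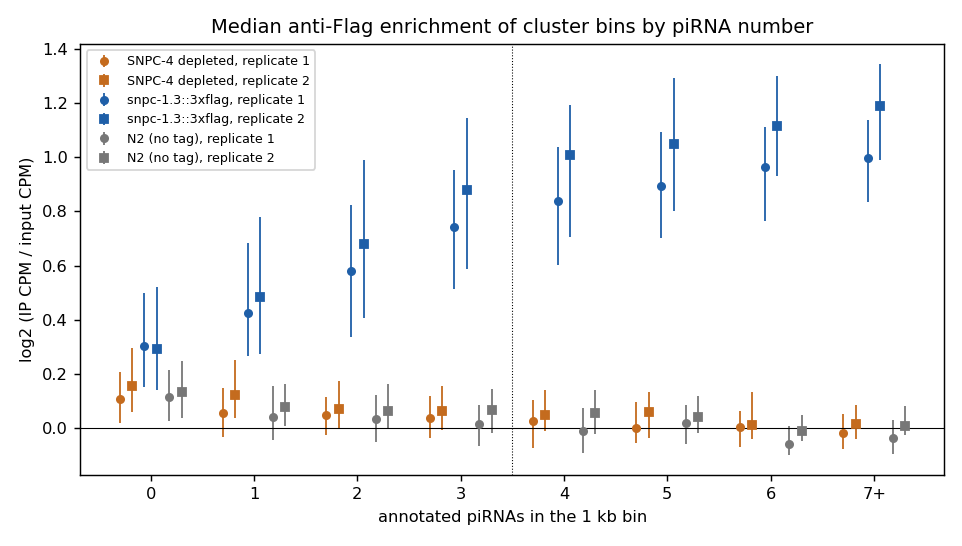
Median log2 ratio of IP CPM to input CPM (y axis) of cluster bins by the number of annotated piRNAs in the bin (x axis), with bars to the 25th and 75th percentiles, in 2 replicates each of SNPC-4-depleted, snpc-1.3::3xflag and N2 worms. Only bins listed for the library enter, and the dotted line marks the limit of 4 piRNAs. In the flag libraries the median climbs to 0.999 and 1.191 at 7 or more piRNAs, while the SNPC-4-depleted and N2 medians lie between -0.06 and 0.15.

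The 2 clusters differed in level. Dense bins of the small cluster had medians of 0.495 and 0.573 in flag worms, and those of the big cluster 0.967 and 1.145. The 18 dense bins between 4.5 and 5 Mb had the lowest, 0.109 and 0.196. In the big cluster, cut into stretches of 0.5 Mb from 13.5 Mb on, the medians ran from 0.807 to 0.995 in replicate 1 and from 0.999 to 1.18 in replicate 2. The lowest were those of the 44 bins beyond 17 Mb. The dependence on piRNA number is smaller within a cluster. The difference between bins with 7 or more and with 4 piRNAs was 0.171 ± 0.015 (mean ± SD of the 2 flag replicates) over both clusters, 0.096 ± 0.008 in the big cluster and 0.023 ± 0.018 in the small cluster, where 15 bins held 7 or more. Over the bins listed in all 6 files, 9 with 7 or more and 28 with 4, the direction turned (-0.091 ± 0.012). Counted by loci, bins with 6 or more exceeded those with 3 by 0.198 ± 0.005.

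With both clusters pooled, dense bins next to other dense bins stood higher. Runs were not examined within each cluster, and the small cluster has the lower level. The 367 that touched no other had medians of 0.769 and 0.888 in flag worms, those in pairs 0.894 and 1.062, in runs of 3 0.946 and 1.119, and the 889 in runs of 4 or more 0.977 and 1.155. The median number of piRNAs was 5 in the first 3 of these groups and 6 in the last. Signal also lay beside the dense bins. Cluster bins with no piRNA that touched a dense bin had medians of 0.497 and 0.558 (131 and 122 of 190 listed), and those 11 or more bins away 0.210 and 0.199 (739 and 717 of 1216 listed).

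The C-first motif also followed the signal. With no CNGTTTCA on either strand, 107 dense bins had median log2 ratios of 0.682 and 0.806 in flag worms. With 1 the medians were 0.804 and 0.940, with 2 they were 0.905 and 1.066, with 3 they were 0.990 and 1.152, with 4 they were 1.102 and 1.3, with 5 they were 1.113 and 1.337, and with 6 or more (20 bins) they were 1.140 and 1.378. Spearman's rho with the number of these motifs was 0.392 and 0.411 over the dense bins, 0.434 and 0.458 in the big cluster, and 0.320 and 0.370 in the small cluster. For GTTTCA with any first bases, which includes these, it was 0.258 and 0.268 over the dense bins. Among bins with exactly 4 piRNAs the medians were 0.670 and 0.833 with no CNGTTTCA (40 bins), 0.771 and 0.942 with 1 or 2 (335 bins), and 0.949 and 1.131 with 3 or 4 (174 bins). GC content had a rho of -0.004 and 0.035 with the log2 ratio in the dense bins.

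By class, male piRNAs had a positive and female piRNAs a negative rank correlation with the signal. Dense bins with no male piRNA (629) had medians of 0.829 and 0.973 in flag worms, those with 1 (468) 0.920 and 1.097, with 2 (382) 0.947 and 1.149, with 3 (206) 1.041 and 1.201, and with 4 or more (138) 1.064 and 1.249. Spearman's rho was 0.278 and 0.283 for male piRNAs and -0.083 and -0.071 for female piRNAs. Within the big cluster it was 0.303 and 0.314 for male and -0.236 and -0.233 for female piRNAs, and within the small cluster 0.165 and 0.176 for male and -0.220 and -0.212 for female piRNAs. The small cluster medians did not climb from 1 male piRNA on (0.543 and 0.646 with 1, 0.525 and 0.617 with 2, 0.513 and 0.587 with 3 or more). The 514 bins with female and no male piRNAs still had medians of 0.831 and 0.974, against 0.301 and 0.292 in cluster bins with no piRNA. The 23 bins whose piRNAs were all male had 0.812 and 1.008, and the 39 whose piRNAs were all female had 0.751 and 0.850. Bins with no male piRNA held a median of 5 piRNAs, and those with 4 or more male ones 7. Among bins with exactly 4 piRNAs the medians were 0.765 and 0.880 with no male piRNA and 0.852 and 1.052 with 1. They were 0.916 and 1.11 with 2, and 0.955 and 1.095 with 3 or more. The male and female classes rest on TMM scaling, and these medians were not repeated with other namings.

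**Figure D2:**
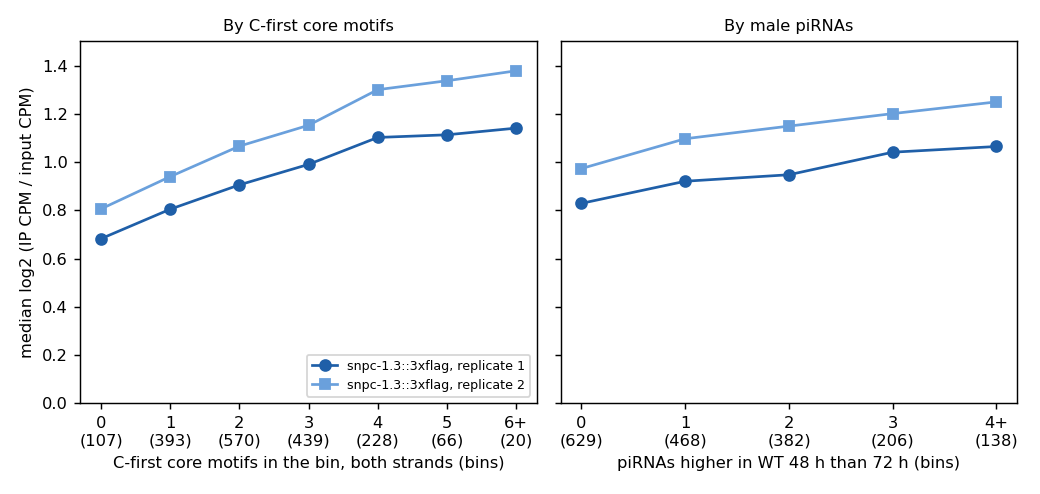
Median log2 ratio of IP CPM to input CPM (y axis) of the dense bins in both snpc-1.3::3xflag replicates, by the number of C-first core motifs in the bin (left) and by the number of male piRNAs (right), with the number of bins in brackets. The medians climb to 1.140 and 1.378 at 6 or more motifs, against 0.682 and 0.806 at none, and to 1.064 and 1.249 at 4 or more male piRNAs, against 0.829 and 0.973 at none.

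The small RNA level of a bin followed the ChIP signal weakly. The piRNA counts of each bin were summed in WT worms at 48 h and scaled to the library's chromosome IV piRNA counts (CPM), where reads of overlapping piRNAs enter the sum more than once. Spearman's rho with the log2 ratio was 0.165 and 0.171 over the dense bins and 0.068 and 0.072 in the big cluster. With dense bins in 4 groups by that level, the lowest group had a median of 24.2 CPM and the highest 855 CPM. From the lowest group to the highest the median log2 ratio in flag worms was 0.849, 0.906, 0.937 and 0.965 in replicate 1, and 1.019, 1.079, 1.120 and 1.145 in replicate 2.

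Single bins show how far the 2 measures can part. Bin chrIV:15235001-15236000 had log2 ratios of 1.718 and 1.722 in flag worms, and its 4 piRNAs summed to 6.28, 5.17 and 0 CPM in WT worms at 48 h. At the other end, chrIV:15257001-15258000 summed to 9585, 10246 and 10033 CPM, with log2 ratios of 0.683 and 0.930 and no CNGTTTCA. The bin with most counts, chrIV:15496001-15497000, had 9170, 10813 and 11945 CPM and ratios of 1.235 and 1.366, and chrIV:13700001-13701000 had 6988, 9967 and 9580 CPM and 1.065 and 1.334. Both hold 8 piRNAs. In the small cluster, chrIV:5566001-5567000, which overlaps the miRNA gene cel-mir-790, had 8350, 9485 and 5793 CPM and ratios of 0.488 and 0.456. The 2 dense bins at 0 counts in all WT 48 h libraries, chrIV:5205001-5206000 and chrIV:5881001-5882000, both in the small cluster, had log2 ratios of 0.684 and 0.573 and of 0.331 and 0.496.

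In SNPC-4-depleted worms the dense bins that could be tested were nearly all lower than in flag worms. Of 171 dense bins listed in all 4 libraries, 166 were lower in SNPC-4-depleted than in flag worms and none was higher (edgeR quasi-likelihood test of the change in IP over input, adjusted p at or below 0.05 and a log2 change of at least 0.26). Over all 16629 bins tested, 4.02% were lower and 0.0782% higher. The median log2 change was -1.02 in the dense bins and 0.03 over all bins. All 141 of the big cluster and 25 of the 30 of the small cluster were called lower.

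Bin chrIV:16069001-16070000 (8 piRNAs, 2 male and 2 female), which shares the smallest adjusted p with chrIV:16382001-16383000, had 10.5 and 10.7 IP CPM in SNPC-4-depleted worms, against 30.8 and 34.8 in flag worms. Its log2 change was -1.66 ± 0.13 (SE, n = 2 per strain, edgeR adjusted p = 2.15e-10). Bin chrIV:14888001-14889000, in the gene eps-8, had 11.5 and 10.9 IP CPM after depletion, against 33.7 and 40.4 in flag worms, a log2 change of -1.69 ± 0.14. Bin chrIV:14618001-14619000, in dmd-6, had 10.9 and 10.5, against 28.5 and 33.3, a log2 change of -1.57 ± 0.14. In these bins both depleted libraries stood below both flag libraries by more than the gap between replicates. They were picked by smallest adjusted p, which made this separation all but certain.

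Flag worms exceeded N2 worms in most of the bins that could be tested. Of 111 dense bins listed in all 4 libraries, 105 were higher in flag than in N2 worms and none was lower, where 3.32% of all 17306 bins tested were higher and 0.139% lower. The median log2 change was 0.96 in the dense bins and -0.03 over all bins. This comparison shares the flag libraries with the previous one. All 81 of the big cluster and 24 of the 30 of the small cluster were called higher. Of the cluster bins with 1 to 3 piRNAs 244 of 315 were higher, and of those with none 186 of 707.

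The largest change was in chrIV:16382001-16383000, which has 4 piRNAs and overlaps the gene Y7A9D.1 and a tRNA gene. It had 11.7 and 11.7 IP CPM in SNPC-4-depleted worms, 34.7 and 34.7 in flag worms and 10.5 and 10.8 in N2 worms. Its log2 change was 1.72 ± 0.13 for flag against N2 (SE, n = 2 each, edgeR adjusted p = 1.04e-14) and -1.62 ± 0.13 for SNPC-4 depleted against flag (adjusted p = 2.15e-10). Bin chrIV:15235001-15236000, which also holds a tRNA gene, had 11.6 and 13.0 IP CPM in SNPC-4-depleted, 36.2 and 36.6 in flag and 11.6 and 10.5 in N2 worms, a log2 change of 1.67 ± 0.13 for flag against N2.

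Bin chrIV:16661001-16662000, next to the bin of 17 piRNAs, had 11.4 and 11.01 IP CPM in SNPC-4-depleted, 33.2 and 37.2 in flag and 11.5 and 10.8 in N2 worms, a log2 change of 1.70 ± 0.13 for flag against N2. Bin chrIV:15570001-15571000, with 7 piRNAs, had 12.7 and 10.6, 32.2 and 33.3, and 11.6 and 11.3 IP CPM in the same strains, a log2 change of 1.57 ± 0.12. Bin chrIV:16143001-16144000, in Y105C5B.25, was listed in neither SNPC-4-depleted file and had 26.6 and 29.1 IP CPM in flag against 10.8 and 10.6 in N2 worms, a log2 change of 1.47 ± 0.12.

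Not every dense bin stood out. The smallest change for flag against N2 was in chrIV:5625001-5626000 of the small cluster, in srsx-14, which had 11.8 and 12.8 IP CPM in flag worms and 11.1 and 10.9 in N2 worms, a log2 change of 0.15 ± 0.11 (edgeR adjusted p = 0.851). Its 4 piRNAs include 2 female and no male ones, and it holds no CNGTTTCA. A further 5 dense bins were listed in no library, which are chrIV:5041001-5042000, chrIV:5910001-5911000, chrIV:6184001-6185000, chrIV:15152001-15153000 and chrIV:15652001-15653000. None of the 5 holds a male piRNA, and among the piRNAs of chrIV:15152001-15153000 is the female 21ur-1848. Another 4 dense bins were listed in only 1 of the 2 flag files. Their log2 ratios there were 0.059 (chrIV:4863001-4864000), 1.322 (chrIV:15678001-15679000), 0.632 (chrIV:15757001-15758000) and 0.288 (chrIV:17129001-17130000). Listing rests on IP CPM, not on the ratio. The bin at 1.322 had an input of 4.34 CPM, against a median of 10.8 over the dense bins listed for that library. The 5 bins listed in no library have no ratio here.

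Against N2 worms, SNPC-4-depleted worms had no bin called. Of 62 dense bins listed in all 4 libraries, none passed the edgeR test, and none of all 21412 bins did (0%), with DESeq2 giving none either. At an unadjusted edgeR p under 0.05 there were 520 of the 21412 bins, 1 of them dense. That is a smaller share than a limit of 0.05 passes where nothing differs. The median log2 change of the dense bins was 0.01 (range -0.22 to 0.26, median SE 0.11).

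The same 62 bins were those listed in all 6 files, and they allow all strains to be set side by side. Their log2 ratios ran from -0.19 to 0.38 with a median of 0.077 in the first and from -0.12 to 0.48 with a median of 0.111 in the second SNPC-4-depleted library. In flag worms they ran from 0.26 to 1.72 (median 1.001) and from 0.35 to 1.85 (median 1.245). In N2 worms they ran from -0.22 to 0.42 (median 0.084) and from -0.18 to 0.37 (median 0.049). In all 62 bins both flag libraries stood above all 4 libraries of the other strains. Such separation was not counted in other bins listed in all 6 files, so it is not shown to be particular to dense bins.

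**Figure D3:**
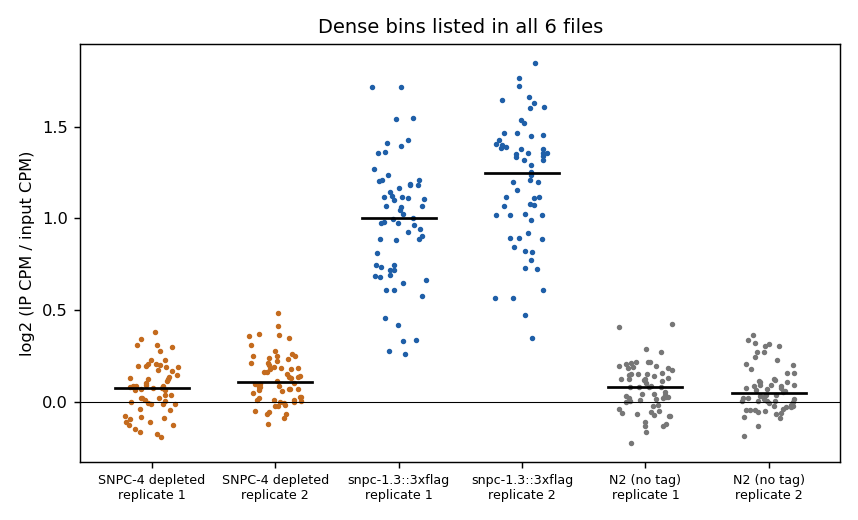
Log2 ratio of IP CPM to input CPM (y axis) of the 62 dense bins listed in all 6 files, 1 point per bin, in each replicate of SNPC-4-depleted, snpc-1.3::3xflag and N2 worms, with a line at the median. The flag medians are 1.001 and 1.245, and the other 4 medians lie between 0.049 and 0.111.

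Most dense bins were unlisted in SNPC-4-depleted or N2 worms, which bounds them rather than leaving them unknown. With the constant of the file in place of the missing IP CPM, 788 of the 1814 dense bins listed in both flag files (43.4%) were at or below 0.5 times the flag level after SNPC-4 depletion in both replicates, where 4.03% of all 25126 such bins were. For flag over N2, 831 (45.8%) were at or above 2-fold in both replicates, where 4.29% of all bins were, and no bin on another chromosome was. The median bound was -0.96 and -1.097 (log2) for SNPC-4 depleted over flag and 0.97 and 1.1 for flag over N2. These bounds compare IP CPM alone, without input and without a test. All these bins were chosen for a flag IP CPM above the constant. Where the other strain is unlisted, the bound follows from the flag level alone, and its direction was nearly fixed by that choice. The shares therefore mainly restate the flag level and are no independent comparison of strains.

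The bins of most piRNAs spanned much of the range, and the 2 with 15 piRNAs lay near the median of all dense bins (0.918 and 1.093). The bin of 17 piRNAs had 32.0 and 35.1 IP CPM in flag worms (log2 ratios 1.503 and 1.699). The next, chrIV:15844001-15845000 with 15 piRNAs, had 21.6 and 25.4 (1.004 and 1.159), and chrIV:16559001-16560000, also with 15 and with 1 CNGTTTCA, had 21.3 and 22.6 (0.906 and 1.098). Bins chrIV:16564001-16565000 and chrIV:16600001-16601000 had 14 each and ratios of 1.219 and 1.243 and of 1.041 and 1.223. Bin chrIV:14273001-14274000 had 13 and ratios of 1.218 and 1.518. None of the 6 was listed in both SNPC-4-depleted files or in both N2 files. The amplicon that the study used for ChIP-qPCR in the big cluster lies in the dense bin chrIV:15396001-15397000, which has 7 piRNAs and ratios of 0.915 and 0.910. The one in the small cluster lies in a bin of 2 piRNAs, outside the dense set, with ratios of 0.894 and 1.044.

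In snpc-1.3(-) worms the piRNAs of the dense bins changed in both directions, at shares near those of all chromosome IV piRNAs. Of 9924 piRNAs of dense bins with any count, 2817 (28.4%) were higher in snpc-1.3(-) than in WT worms at 48 h and 2266 (22.8%) lower. The test was edgeR with TMM scaling over chromosome IV piRNAs. Of all 13982 piRNAs, which include those of dense bins, 25.6% were higher and 23.7% lower. In whole worms, fewer cells making a piRNA and less of it per cell cannot be told apart. Overlapping piRNAs share reads: 4700 of the 9924 had the same counts in all 11 libraries as a piRNA they overlap, and with such sets counted once the calls were 1899 higher and 1640 lower. The split moves with the scaling. Relative to miRNA totals 1546 were higher and 2602 lower, and DESeq2 gave 1570 and 2481. The median of all piRNAs, at 0 under TMM, was -0.15 (log2) relative to miRNA totals. These medians include many piRNAs with few counts and do not give the shift of the others. Over the 8332 piRNAs left by an expression filter (filterByExpr), the median under TMM was 0.37. As a share of chromosome IV piRNA counts, dense bins gave 83.5 and 84.5% in snpc-1.3(-) worms and 79.1, 79.4 and 79.1% in WT worms.

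The 5 piRNAs with the smallest adjusted p among those that fell lay in the big cluster. The male and female names rest on the same WT 48 h libraries as this comparison and are no independent result here. 21ur-770, from chrIV:16391001-16392000, had 6.12 and 6.88 CPM in snpc-1.3(-) worms, against 1603, 2046 and 1875 in WT worms, a log2 change of -7.63 ± 0.43 (SE, n = 2 and 3, edgeR adjusted p = 4.71e-65). 21ur-2592 had 8.16 and 14.7 CPM, against 2356, 2337 and 2736 in WT worms, and 21ur-1413 had 24.5 and 15.7, against 1869, 1714 and 2169. The overlapping 21ur-3840 and 21ur-10260 had equal values, 6.12 and 2.95 CPM in snpc-1.3(-) worms against 701, 704 and 1036 in WT worms. In each of them both mutant libraries lay below all WT libraries, which the choice by smallest adjusted p made all but certain. Fold changes here are on the TMM scale, which lies 0.45 (log2) above the ratio of these CPM.

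Others rose. 21ur-296, in an intron, had 143 and 147 CPM in snpc-1.3(-) worms, against 20.9, 13.5 and 30.0 in WT worms, a log2 change of 3.30 ± 0.32 (adjusted p = 1.09e-22). 21ur-8109 had 1020 and 734 CPM, against 153, 216 and 283 in WT worms. 21ur-6682 had 116 and 135 CPM, against 20.9, 21.7 and 2.15. None of the 5 with the smallest adjusted p among those that rose had NNGTTTCA in the 60 bases upstream, but 51.8% of all female and 82.3% of all male piRNAs of dense bins had GTTTCA there. All 5 of those that fell had it with a C first, of which 21ur-3840 and 21ur-10260 share 1 motif and their counts.

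The study's TaqMan probes match 4 piRNAs of dense bins, shown with their sequences above. The probe of 21ur-4817 is named 21UR-4807 in the reagent list of the study but has the sequence of 21ur-4817. The male 21ur-3766 had 44.9 and 50.1 CPM in snpc-1.3(-) worms, against 301, 242 and 165 in WT worms at 48 h, a log2 change of -1.84 ± 0.30 (edgeR adjusted p = 4.85e-09). The female 21ur-1848 had 461 and 507, against 151, 212 and 129 (1.97 ± 0.27, adjusted p = 1.56e-12). The female 21ur-2502, whose bin holds the big cluster amplicon, had 487 and 363, against 201, 157 and 135 (1.79 ± 0.26, adjusted p = 5.69e-11). The female 21ur-4817 had 461 and 420, against 224, 138 and 146 (1.84 ± 0.27, adjusted p = 5.11e-11). Mutant and WT libraries did not overlap in any of the 4.

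**Figure D4:**
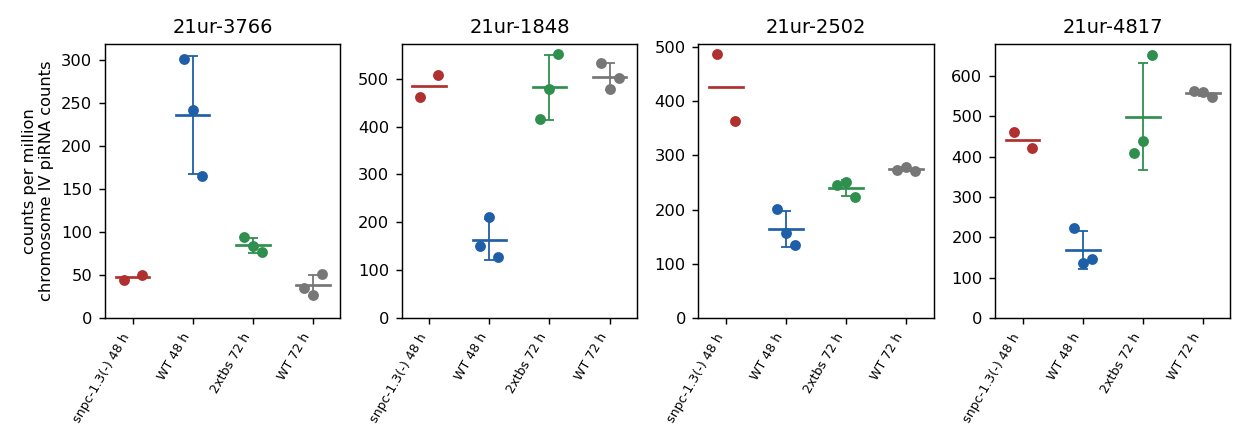
CPM, counts scaled to the library's chromosome IV piRNA counts (y axis), of 4 piRNAs of dense bins in snpc-1.3(-) worms at 48 h, WT worms at 48 h, snpc-1.3(2xtbs) worms at 72 h and WT worms at 72 h, 1 point per library, with lines at the means and bars of 1 SD for groups of 3. The male 21ur-3766 is highest in WT worms at 48 h, and the female 21ur-1848, 21ur-2502 and 21ur-4817 are lowest there.

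Within a bin, piRNAs went both ways. In the bin of 17, the overlapping male piRNAs 21ur-9202 and 21ur-13104 had equal values, 22.4 and 13.8 CPM in snpc-1.3(-) worms against 115.1, 116 and 127 in WT worms, a log2 change of -2.34 ± 0.38 (edgeR adjusted p = 4.56e-09). The female 21ur-129 had 12.2 and 12.8 CPM, against 0, 2.07 and 8.58, a log2 change of 2.39 ± 0.69 (adjusted p = 0.00145), and its 4 female neighbours had nearly the same counts. The sum of that bin had 175 and 142 CPM in snpc-1.3(-) worms, against 333, 333 and 436 in WT worms, and was called lower (-0.64 ± 0.23, edgeR adjusted p = 0.0179). Male piRNAs were present in 1194 dense bins, female ones in 1327 and both in 813.

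Summed over a bin, 798 of the 1823 dense bins (43.8%) were higher and 574 (31.5%) lower in snpc-1.3(-) worms. Of all 4078 bins with a piRNA, which include the dense bins, 31.9% were higher and 29.9% lower. Relative to miRNA totals the counts were 352 and 762, with the median of all bins at -0.72 (log2) against 0 under TMM, and with DESeq2 659 and 650. Bins whose sum fell had median log2 IP ratios of 0.984 and 1.165 in flag worms, and bins whose sum rose had 0.862 and 1.020. Among bins with exactly 4 piRNAs these were 0.924 and 1.095 for 207 that fell, and 0.768 and 0.904 for 197 that rose. Fold changes of bin sums lie 0.57 (log2) above the ratio of their CPM. The sum of chrIV:14618001-14619000, in dmd-6, had 8.16 and 0 CPM in snpc-1.3(-) worms against 123, 150 and 154 in WT worms. That of chrIV:15570001-15571000 had 32.6 and 16.7, against 303, 333 and 350, a log2 change of -3.26 ± 0.28. The sum of the amplicon bin chrIV:15396001-15397000 had 487 and 368, against 209, 169 and 154, a log2 change of 1.83 ± 0.20. That of chrIV:16559001-16560000, with 15 piRNAs, had 4592 and 7103, against 2515, 3560 and 3068 (1.54 ± 0.24).

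Between the stages, 2424 piRNAs of dense bins (24.4%) were higher and 3380 (34.1%) lower in WT worms at 48 h than at 72 h. Of all piRNAs, 25.5% were higher and 30.6% lower. With sets of equal counts counted once the calls in dense bins were 1742 and 2326. The 2424 and 3380 are the male and female piRNAs of the text above. Relative to miRNA totals there were 1495 and 4225, with the median of all piRNAs at -1.25 against -0.36 under TMM, and DESeq2 gave 2801 and 1848, with that median at 0.46, so how many piRNAs carry each name depends on the scaling. 21ur-6420 had 778, 814 and 519 CPM at 48 h, against 14.1, 22.4 and 21.9 at 72 h, a log2 change of 4.68 ± 0.27 (edgeR adjusted p = 1.60e-63) on the TMM scale, which for this comparison is shifted by -0.52 (log2) from the ratio of these CPM. 21ur-5831, in an intron, had 170, 133 and 200 at 48 h, against 1293, 1293 and 1161 at 72 h, a log2 change of -3.44 ± 0.27, and shares these counts with the overlapping 21ur-4578.

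The allele of snpc-1.3(2xtbs) worms alters sites for the repressor TRA-1 upstream of snpc-1.3. In these worms 1099 piRNAs of dense bins (11.1%) were higher and 499 (5.03%) lower than in WT worms at 72 h. The shares over all piRNAs were near these, at 11.3% higher and 4.47% lower. In dense bins, sets of equal counts counted once gave 780 and 359. Relative to miRNA totals there were 318 and 1771, with the median of all piRNAs at -0.49 against 0 under TMM, and DESeq2 gave 947 and 240. The number lower was 211 without the first and 165 without the second 2xtbs library, and 102 without the first and 145 without the second WT 72 h library. 21ur-6881 had 1174, 976 and 660 CPM in 2xtbs worms, against 152, 200.1 and 250 in WT worms, a log2 change of 2.21 ± 0.25 (edgeR adjusted p = 6.18e-16). 21ur-7515, which shares its counts with 21ur-5211, had 96.0, 92.2 and 82.8, against 17.8, 15.4 and 17.5 (2.41 ± 0.26). 21ur-3766 had 94.1, 83.5 and 76.6, against 35.7, 27.4 and 51.0 (1.15 ± 0.24, adjusted p = 4.04e-05, but adjusted p = 0.111 relative to miRNA totals). Among those lower, 21ur-3910 had 33.3, 40.5 and 57.5, against 138, 104 and 65.3 (-1.27 ± 0.24).

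The snpc-1.3(-) and 2xtbs comparisons share no library, but they come from the same fit of all 11 libraries, with a shared estimate of spread. Of the 1099 piRNAs higher in 2xtbs worms, 1038 (94.4%) were lower in snpc-1.3(-) worms, where 22.8% of all piRNAs of dense bins were. They are 45.8% of the 2266 lower there. Of the 499 lower in 2xtbs worms, 421 (84.4%) were higher in snpc-1.3(-) worms, where 28.4% of all piRNAs of dense bins were. They are 14.9% of the 2817 higher there. In the same direction in both there were 26 higher and 1 lower. These overlaps are under TMM alone and count overlapping piRNAs with equal counts separately. The shares over all piRNAs of dense bins include many with too few counts to be called. Of the 6199 left by the expression filter, 2650 were higher and 2184 lower in snpc-1.3(-) worms.

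**Figure D5:**
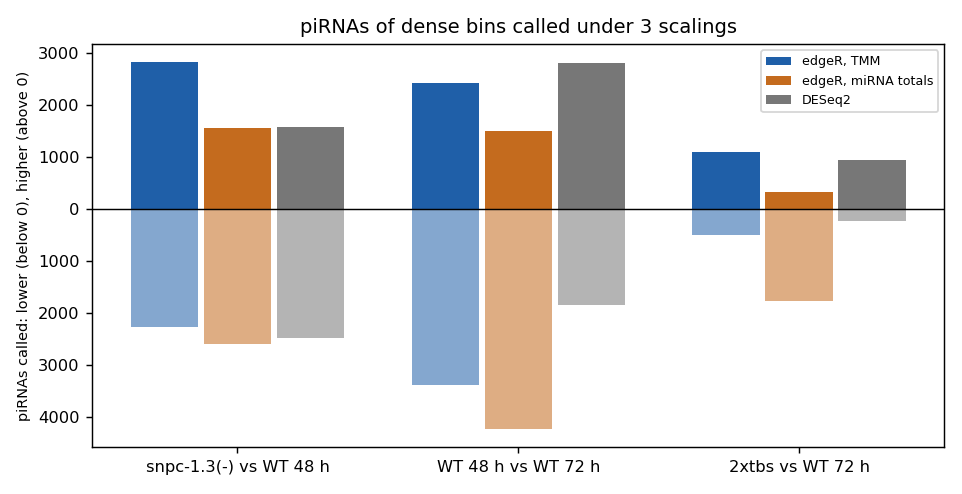
Number of piRNAs of dense bins called higher (above 0) and lower (below 0) in 3 comparisons (x axis), with edgeR under TMM scaling, edgeR relative to miRNA totals, and DESeq2. For snpc-1.3(-) against WT at 48 h the calls are 2817 and 2266, 1546 and 2602, and 1570 and 2481 in that order of scalings.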

How the data were processed

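ChIP-seq bin counts and their CPM (on the count plus 1) were deposited by the authors for each IP and input pair, after Trim Galore 0.5.0, Bowtie2 2.3.4.2 and removal of duplicates with Picard 2.22.1. Bins with low IP coverage were left out of the files. The deposited IP signal (CPM minus 1 constant per file) served only as an alternative. TRA-1 peak files, and the authors' normalized counts and class columns, were not used. Small RNA counts per feature were deposited by the authors, made with Trimmomatic 0.39, Bowtie 1.1.1 and featureCounts (Subread 1.6.3), where a read counts for each feature it overlaps and multi-mapped reads are kept. Whether counting used strand is not given in the sources used here.

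ChIP bins listed in all 4 files of a comparison were tested with edgeR 4.0.16 (R 4.3.3) on the change of IP over input, with library totals as deposited. piRNA counts of chromosome IV were tested with edgeR under TMM over all 11 libraries. Calls needed a Benjamini-Hochberg adjusted p of at most 0.05 and a log2 change of at least 0.26. DESeq2 1.42.0, other scalings, blocks and omitted libraries were alternatives. The fits were tested on simulated data. The bins, lists and piRNAs were chosen with earlier results of these data known. Bins named were those with most piRNAs, smallest adjusted p, largest and smallest change, most or no small RNA counts, and the study's amplicons. piRNAs named were those of TaqMan assays, of some named bins and of smallest adjusted p. Sequences came from the WBcel235 genome, whose Ensembl annotation matched all 14714 piRNA positions.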

Additional observations from a re-analysis of the deposited data

How the results depend on the processing

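The replicate numbers were not taken as pairs between strains or stages, since no label gives them that meaning. Each IP library has its own input, and the main ChIP test did not use that match. With a block for each IP and its input, 106 dense bins were called for flag against N2. For SNPC-4 depleted there were 165 against flag and 0 against N2. Deviations of same-numbered libraries correlated at 0.055 to 0.17 for IP and at 0.217 to 0.261 for input, over 2 pairs per comparison, and those of same-numbered small RNA libraries from -0.46 to 0.16. A replicate block moved no count of calls by over 1.5 times: it gave 106 dense bins for flag against N2, 166 for SNPC-4 depleted against flag and 0 for SNPC-4 depleted against N2, 2700 piRNAs higher and 2120 lower in snpc-1.3(-) worms, 2268 and 3269 between stages, 985 and 359 in 2xtbs worms, and 773 and 561 bin sums.

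A log2 change of at least 1 left 90 dense bins for SNPC-4 depleted against flag and 53 for flag against N2, and a limit of 5 or more piRNAs left 105 and 57 of fewer bins. That limit left 367 bin sums lower in snpc-1.3(-) worms. Relative to miRNA totals, the numbers higher were 1546 in snpc-1.3(-) worms, 1495 between stages, 318 in 2xtbs worms and 352 for bin sums, and 1771 were lower in 2xtbs worms. DESeq2 gave 1570 higher in snpc-1.3(-) worms, 1848 lower between stages and 240 lower in 2xtbs worms. The sum of bin chrIV:15257001-15258000, called higher in snpc-1.3(-) worms (0.71), was at -0.14 relative to miRNA totals. With 1 library left out at a time, the number lower in 2xtbs worms ran from 102 to 669, and other counts stayed within 1.5 times.

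The difference between bins with 7 or more and with 4 piRNAs (0.171) was 0.412 on the authors' signal, 0.0959 in the big cluster, 0.0228 in the small cluster and -0.0907 over bins listed in all 6 files, which were 9 and 28. With 6 or more loci against 3 it was 0.198. The loci and the equal-count sets were chosen after seeing the data. The causes of these shifts were not tested.

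Listing limits the ChIP tests to 62 to 171 of 1823 dense bins. Of single values, all 220 alternatives for named bins by ChIP kept their call. For named piRNAs 933 did, 18 lost it and 6 gained it. For their bin sums 242 did, 32 lost it, 2 gained it and 1 turned round. On counts simulated for snpc-1.3(-) against WT at 48 h, 200 of 13709 features were changed. Of the 2-fold changes 5% were called, and of the 4-fold changes 34%. With so few changed, the adjusted p is stricter than in the data, where 25.6% of piRNAs were called higher and 23.7% lower. Calls can be missed at this depth, but this rate does not measure how many.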
